A study of Mus musculus with 12 samples.

Results

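The genes of the H3K9 methylation and HP1 machinery were examined in ATAC-seq peak lists of mouse embryonic stem cells (ESCs). They are 10 of the 21755 protein-coding genes annotated on chromosomes 1 to 19 and X, namely the H3K9 methyltransferases Suv39h1, Suv39h2, Setdb1, Ehmt1 and Ehmt2, the corepressor Trim28, the HP1 proteins Cbx1, Cbx3 and Cbx5, and the chromatin remodeller Atrx. The list was set by name, and every peak with its summit inside one of these genes or within 5 kb of either end was taken, using gene models of GENCODE vM21 on mm10. Of 438517 peaks in all lists together, 170 had such a summit.

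In ATAC-seq, adapters are inserted by a transposase where DNA is accessible, and open chromatin is then seen as a pile of sequenced fragments. The ESCs were wild type (WT) or Suv39h double null (Suv39h dn), the latter lacking both Suv39h1 and Suv39h2, and each genotype was represented by 1 cell line grown with leukaemia inhibitory factor. Each line was assayed as untreated asynchronous cells, as mitotic cells collected by shake-off after 0.1 μg/ml demecolcine for 6 h, and as mitotic chromosomes purified by flow cytometry from cells arrested in the same way. There were 2 libraries in each of these 6 groups, 12 in all, and the labels do not say that the libraries came from separate cultures, so that each p below measures the spread between these libraries alone. Nuclei were prepared from the asynchronous cells with a detergent buffer and chromosomes were released with a polyamine buffer, so the cell state and the way of preparing the chromatin cannot be told apart.

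Methylation of lysine 9 of histone H3 marks silent chromatin. Suv39h1 and Suv39h2 place the trimethyl mark at pericentric repeats, Setdb1 is brought by Trim28 and KRAB zinc-finger proteins to retroelements, and Ehmt1 (Glp) with Ehmt2 (G9a) form a heteromeric enzyme that places lower methylation states in euchromatin. HP1 proteins bind the methylated lysine through their chromodomain, and Atrx works with Daxx to deposit a variant histone H3 in heterochromatin. The peaks described here show how open the chromatin at these genes was, not where the proteins they encode were bound.

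For each gene a promoter peak means a peak with its summit within 1 kb of any annotated transcript start. The fold enrichment is the authors' ratio of fragment pileup at the summit to the local background. A library without a peak lay below the threshold of the peak caller, which is not a measurement of closed chromatin. The 12 lists held between 1746 and 80602 peaks, and the lowest background of a list, which grows with its depth, was between 0.149 and 0.328 fragments per base. Promoter peaks were found at 3.63% to 55.9% of all protein-coding genes. Suv39h dn mitotic library 1 stood apart with 1746 peaks, had a promoter peak at 3.63% of genes and had 0 summits at the 10 genes, so its absence of peaks says little about any of them. Of 10 ESC marker genes, between 4 and 8 had a promoter peak in the asynchronous libraries, beside 31.6% to 55.9% of all genes. On chromosomes 3 to 7 had one, beside 37.4% to 51.3%, and in mitotic libraries 0 to 4, beside 3.63% to 29.3%. Of 6 fibroblast markers Col1a1, Col3a1, Pdgfrb and Thy1 had none in any of the 12 libraries. Col1a2 had one in 2 asynchronous and 4 chromosome libraries, and Twist1 in 2 chromosome libraries. Endoderm markers had promoter peaks in 1 to 4 of 4 genes in asynchronous libraries and in 0 or 1 in mitotic libraries. On chromosomes they had them in 4 of 4 genes in both WT libraries and in 2 of 4 in both Suv39h dn libraries. Promoter peaks thus did not separate ESC markers from endoderm markers.

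The windows below show the DNA that carries the main observations, in the orientation of the gene. Each is 201 bases of GRCm38 (mm10) centred on the median summit of the peak region that was called in most libraries at that gene. Suv39h1 and Suv39h2 are shown because they are disrupted in Suv39h dn cells, Setdb1 and Atrx for their start sites, Ehmt1 for its intronic region, and Cbx5 because its region was called more often than any other at the 10 genes. Capitals mark matches to the short motifs listed after the sequences.
Suv39h1, chrX:8074466-8074666, minus strand: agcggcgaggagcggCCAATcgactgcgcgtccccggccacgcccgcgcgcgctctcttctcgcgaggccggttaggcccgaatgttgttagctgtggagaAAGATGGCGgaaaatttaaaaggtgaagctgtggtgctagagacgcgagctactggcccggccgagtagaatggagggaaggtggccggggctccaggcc
Suv39h2, chr2:3474919-3475119, minus strand: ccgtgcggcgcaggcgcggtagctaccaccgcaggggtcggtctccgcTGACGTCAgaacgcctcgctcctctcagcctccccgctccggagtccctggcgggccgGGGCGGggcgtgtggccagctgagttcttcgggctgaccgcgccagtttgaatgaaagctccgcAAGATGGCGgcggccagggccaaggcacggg
Setdb1, chr3:95357156-95357356, minus strand: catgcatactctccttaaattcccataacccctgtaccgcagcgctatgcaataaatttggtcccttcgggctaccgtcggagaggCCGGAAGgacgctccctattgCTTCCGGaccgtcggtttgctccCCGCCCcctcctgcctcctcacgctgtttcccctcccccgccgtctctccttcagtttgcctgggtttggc
Ehmt1, chr2:24912238-24912438, minus strand: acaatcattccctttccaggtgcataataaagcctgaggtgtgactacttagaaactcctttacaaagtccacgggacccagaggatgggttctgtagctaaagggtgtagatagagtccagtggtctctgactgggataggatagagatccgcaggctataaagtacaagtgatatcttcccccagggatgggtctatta
Cbx5, chr15:103239406-103239606, minus strand: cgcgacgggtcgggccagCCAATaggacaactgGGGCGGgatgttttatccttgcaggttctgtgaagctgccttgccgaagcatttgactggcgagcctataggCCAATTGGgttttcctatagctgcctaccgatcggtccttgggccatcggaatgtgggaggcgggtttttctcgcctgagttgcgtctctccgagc
Atrx, chrX:105929308-105929508, minus strand: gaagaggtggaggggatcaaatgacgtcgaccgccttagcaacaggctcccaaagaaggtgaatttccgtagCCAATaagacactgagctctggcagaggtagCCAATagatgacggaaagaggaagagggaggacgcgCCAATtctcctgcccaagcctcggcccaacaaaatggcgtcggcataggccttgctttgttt

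The letters searched, on both strands, were CCAAT (bound by NF-Y), GGGCGG (the GC box of SP and KLF factors), AAGATGGCG (YY1), TGACGTCA (the cyclic AMP response element), CCGGAAG (ETS factors), GCGCATGCG (NRF1), CACGTG (E-box) and TNAAGGTCA (Esrrb). In the same kind of window at all 10 genes, GGGCGG occurred at 5 and CCAAT at 4. Among the 434895 windows of the same length around every summit of the 12 lists on these chromosomes, GGGCGG occurred in 19.0% and CCAAT in 27.4%. Those windows cover summits at any distance from a start and in any number of libraries. The windows of the 10 genes come from the region called in most libraries, so the shares are not a matched background. The window of Atrx held 3 separate CCAAT matches, and that of Cbx5 held 3 of which 2 overlapped as a palindrome. AAGATGGCG was found at Suv39h1 and Suv39h2, against 3.11% of all windows, TGACGTCA at Suv39h2, against 0.731%, and CCGGAAG in 2 copies at Setdb1, against 4.99%. GCGCATGCG (0.489% of all windows), CACGTG (3.87%) and TNAAGGTCA (1.13%) were not among the letters of the 10 windows. The start site windows of Suv39h1, Suv39h2 and Cbx1 were rich in CpG, with 22, 24 and 26 CpG, whereas the intronic windows of Ehmt1 and Ehmt2 had 2 and 3. A match of letters is a description of the sequence and not a binding site.

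The 10 genes had 107 promoter summits among their 170 summits (62.9%). By position, 35 summits lay in exons, 81 in introns, 42 upstream and 12 downstream of the gene. No share over all genes is set beside these counts, so they are not read as particular to the 10 genes. The signal behind a peak was small, with a median of 7 fragments at the summit and a range of 3 to 29, and fold enrichments between 3.34 and 16.0. Keeping peaks with q at or under 1e-05 left 53 of the summits (31.2%), close to the 30.6% of all peaks. When overlapping peaks were merged, 65 regions remained, of which 25 were called in 1 library and 5 in at least 6 libraries.

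Promoter peaks at the 10 genes were about as frequent on sorted chromosomes as in asynchronous ESCs, with means of 6.50 and 6.25 genes per library, and less frequent in the shorter lists of mitotic ESCs, with 2.75. The pattern was shared by all protein-coding genes. Their shares per library were 31.6% to 55.9% in asynchronous ESCs, 3.63% to 29.3% in mitotic ESCs and 37.4% to 51.3% on chromosomes. The likeness of chromosomes and asynchronous ESCs at the 10 genes depended on the threshold, with means of 1.25 and 3.75 at q at or under 1e-05. The means were 6.00 and 4.25 when lists were cut to equal length within each preparation, which left chromosome lists longer than asynchronous ones. In asynchronous ESCs 6 and 8 of the 10 genes had a promoter peak in WT, and in Suv39h dn 5 and 6 did. In mitotic ESCs the WT libraries had 2 and 4 such genes, and the Suv39h dn libraries 0 and 5. Sorted chromosomes of either genotype had 6 and 7. The genotypes overlapped in asynchronous and mitotic ESCs and were equal on chromosomes. The share of all protein-coding genes with a promoter peak was lower than that of the 10 genes in every library except Suv39h dn mitotic library 1, where it was 3.63% against 0. Each annotated start gives a place for a promoter peak, and the 10 genes had 4 to 27 starts each. The shares were not adjusted for the number of starts. The margin was smallest in mitotic WT library 1, with 2 of 10 genes against 16.3%, and in Suv39h dn asynchronous library 2, the longest list, with 6 of 10 against 55.9%. Summed over genes and libraries, a promoter peak was present in 25 of 40 cases in asynchronous ESCs, 11 of 40 in mitotic ESCs and 26 of 40 on chromosomes.

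**Figure D1:**
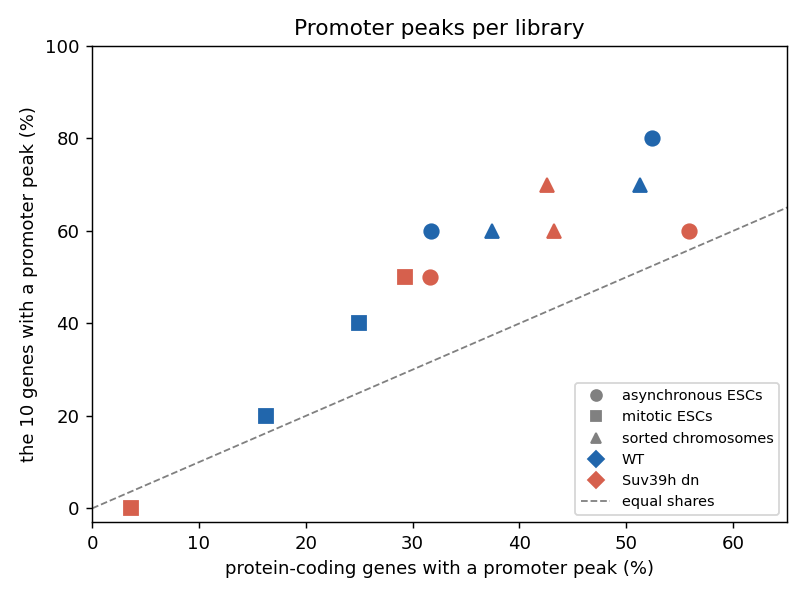
Share of the 10 H3K9 methylation and HP1 genes with a promoter peak (vertical axis, %) against the share of all protein-coding genes with one (horizontal axis, %), 1 marker per library, shape for preparation and colour for genotype. In 11 of 12 libraries the marker lies above the dashed line of equal shares, and the exception is Suv39h dn mitotic library 1, at 0 and 3.63%.

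Relative to the length of the lists the order was different. Per 10000 peaks, asynchronous WT libraries had 5.82 and 4.22 summits at the 10 genes, and asynchronous Suv39h dn libraries 5.18 and 4.09. On chromosomes the values were 3.02 and 2.54 for WT, and 1.85 and 4.01 for Suv39h dn, so the highest chromosome library lay just below the lowest asynchronous one. Mitotic WT libraries had 9.24 and 6.76, and mitotic Suv39h dn libraries 0 and 8.38. The 10 genes together had 13 to 33 summits per asynchronous library, 0 to 12 per mitotic library and 11 to 18 per chromosome library. The mean over all protein-coding genes was 0.822 to 2.57, 0.0737 to 0.617 and 1.45 to 2.34 summits per gene. The rate per 10000 peaks was not taken over all genes, so this order is not read as particular to the 10 genes.

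Single genes ranged from 2 to 11 libraries with a promoter peak. Their median was 6.5 of 12 libraries, beside 4.0 over all protein-coding genes and 8.0 over 31 other genes of H3K9 methylation and its readers, erasers and partners. These medians were not adjusted for the number of annotated starts either. In descending order the numbers were 11 for Cbx5, 9 for Cbx3 and Trim28, 7 for Cbx1 and Setdb1, 6 for Suv39h2, 4 for Ehmt1 and Atrx, 3 for Ehmt2 and 2 for Suv39h1. Neighbours in this order differed by at most 2 libraries, and the order was not tested.

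**Figure D2:**
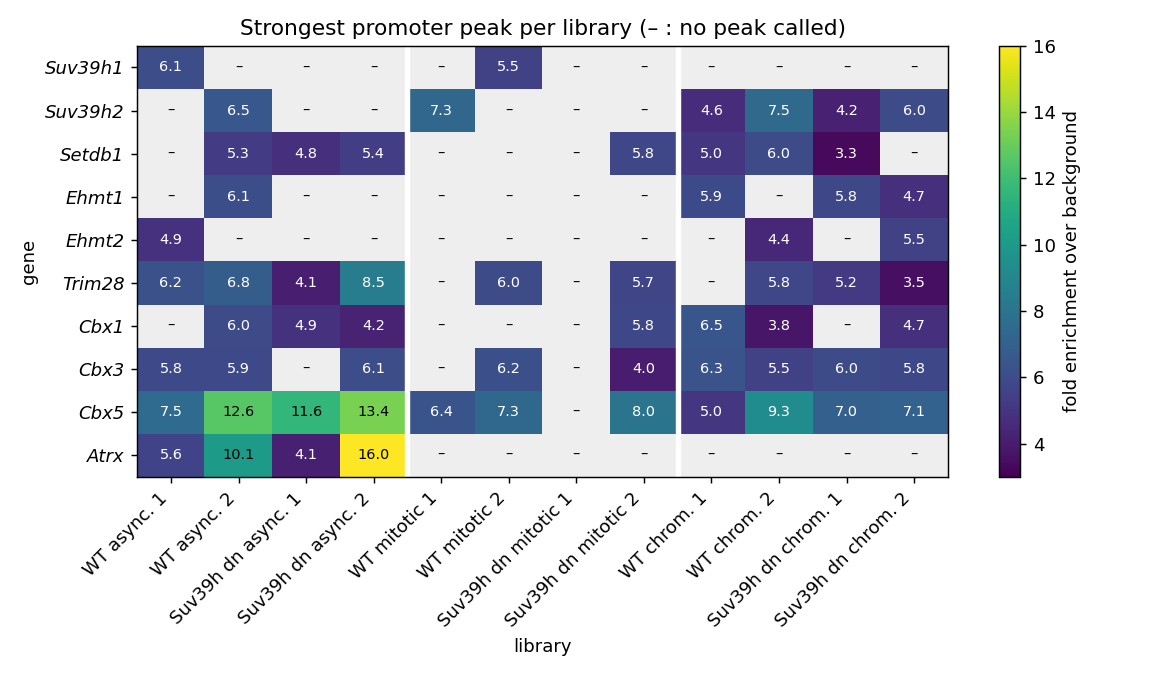
Fold enrichment of the strongest promoter peak (colour and printed value) for each of the 10 genes (rows) in each of the 12 libraries (columns, grouped as asynchronous ESCs, mitotic ESCs and sorted chromosomes), with a dash where no peak was called. Cbx5 has a value in 11 libraries, and Atrx has values in the 4 asynchronous libraries and in none of the other 8.

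Suv39h1 (chrX:8061171-8074760, minus strand) encodes the first of the trimethylating enzymes, and it was the gene with the fewest peaks. Its promoter peak was called in asynchronous WT library 1, with a fold of 6.09, and in mitotic WT library 2, with a fold of 5.52. No peak was called within its window in any of the 6 Suv39h dn libraries, whereas 3 of 6 WT libraries had a summit there, the third being a weak exonic peak with a fold of 4.21 in chromosome WT library 1. The promoter summits lay 187 and 200 bp downstream of the gene's 5′ end, in an exon, and each rested on 6 fragments. The sources used here do not give which part of the gene was disrupted, so the absence of a peak does not check the genotype. The exact two-sided permutation p, from ranks within each preparation, was 0.500 for the promoter fold and 0.250 for the number of summits. Both are the smallest that so few calls allow, so the test could not have separated the genotypes here.

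Suv39h2 (chr2:3455815-3475031, minus strand), which encodes the other disrupted enzyme, had a promoter peak in each library of sorted chromosomes. The folds there were 4.64 and 7.49 for WT libraries, 4.17 and 5.98 for Suv39h dn libraries, and the genotypes overlapped. Among the cell libraries, asynchronous WT library 2 had a fold of 6.53 and mitotic WT library 1 a fold of 7.30, and none of the 4 Suv39h dn cell libraries had a promoter peak. A promoter peak at Suv39h2 was thus still called in the Suv39h dn line, in 2 of 2 chromosome libraries, in the CpG-rich window shown above. The Suv39h dn folds in that window were 4.17 and 5.26. The 5.98 of Suv39h dn library 2 and the 4.64 of WT library 1 belonged to a separate region, with summits 653 and 608 bp downstream of the 5′ end. With a mean rank difference of -1.0 between Suv39h dn and WT, Suv39h2 had the lowest promoter p of the 10 genes, an exact two-sided permutation p of 0.167. A peak at the far end of the gene, in an exon, was called in asynchronous WT library 2 with a fold of 5.36 and in asynchronous Suv39h dn library 2 with a fold of 10.7.

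Setdb1 (chr3:95323525-95357202, minus strand), the enzyme that works with Trim28, had promoter peaks on both sides of its start. The region upstream of the start was called with folds of 5.26 in asynchronous WT library 2, 4.80 and 5.37 in the asynchronous Suv39h dn libraries, 5.77 in mitotic Suv39h dn library 2 and 3.34 in chromosome Suv39h dn library 1. A separate region at a median of 49 bp downstream of the nearest annotated start was called in both WT chromosome libraries, with folds of 5.05 and 6.03. The upstream region was thus called in 1 WT and 4 Suv39h dn libraries and the downstream region in 2 WT and 0 Suv39h dn libraries. These regions were picked after their values were seen, and the promoter of Setdb1 as a whole had a mean rank difference (the effect, Suv39h dn minus WT) of 0 and an exact permutation p of 1.00. Intronic peaks 7386 to 8594 bp downstream of the nearest annotated start were called in the asynchronous Suv39h dn libraries alone. Their folds were 4.15 to 6.13, with 4 to 7 fragments each. At each library number the asynchronous Suv39h dn list was longer than the WT one. These intronic regions were also picked after values were seen, and no share of all regions that part in this way was taken.

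Ehmt1 (chr2:24789928-24919614, minus strand), which encodes Glp, had its peaks at different positions in asynchronous cells and on chromosomes. Asynchronous cells had an intronic region 7236 bp downstream of the nearest annotated start, at chr2:24912215-24912476, with folds of 4.99 and 8.08 for WT and 11.1 for Suv39h dn library 2, and no call in Suv39h dn library 1. It was not called in any mitotic or chromosome library. Sorted chromosomes had summits close to the 5′ end in WT library 1, 409 bp downstream (fold 5.90), and in the Suv39h dn libraries, 585 and 653 bp downstream (folds 5.84 and 4.73). Within 1 kb of that 5′ end no cell library had a summit, and the promoter peak counted in asynchronous WT library 2, with a fold of 6.13, belonged to a start within the gene. Chromosomes also had a region near the far end of the gene. It held the only summit of WT library 2, 127323 bp downstream of the 5′ end (fold 4.40), and one of Suv39h dn library 1 at 127398 bp (fold 4.15). The latter library had a further summit 27940 bp downstream (fold 3.34). Mitotic ESCs had 0 summits in the whole window of Ehmt1.

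Ehmt2 (chr17:34898469-34914052, plus strand), which encodes G9a, had few promoter peaks and 1 recurrent intronic region. The intronic region, at chr17:34912231-34912316, had folds of 3.82 and 7.88 in asynchronous WT, 6.24 and 5.11 in asynchronous Suv39h dn and 7.41 in mitotic Suv39h dn library 2. All 4 asynchronous libraries and no chromosome library had it, and the genotypes overlapped. Promoter peaks were called in 3 libraries, with folds of 4.87 in asynchronous WT library 1, 4.44 in chromosome WT library 2 and 5.51 in chromosome Suv39h dn library 2. The first of these lay 27 bp from the start of the neighbouring gene C2 and cannot be assigned to either gene, and the chromosome peaks lay at starts within Ehmt2.

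**Figure D3:**
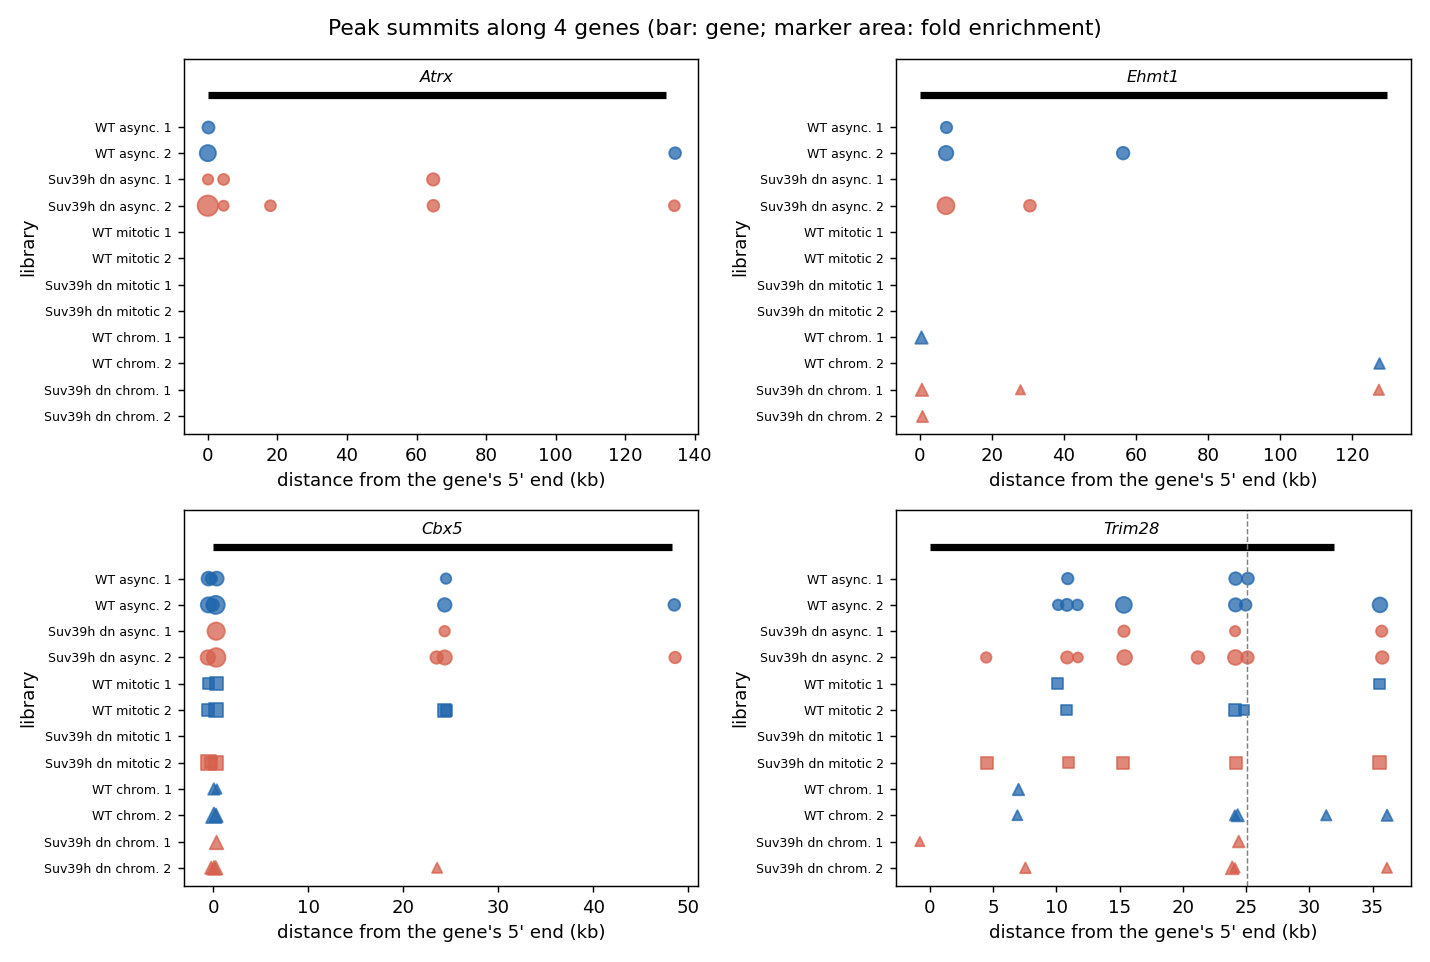
Positions of all peak summits along Atrx, Ehmt1, Cbx5 and Trim28, as distance from the gene's 5′ end in kb (horizontal axis) for each library (rows), with marker shape for preparation, colour for genotype (blue WT, red Suv39h dn) and marker area for fold enrichment. The black bar is the annotated gene and the dashed line in the panel of Trim28 is its second annotated start; Atrx has markers in the asynchronous rows alone, and the Cbx5 column near its 5′ end runs through 11 of the 12 libraries.

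Trim28 (chr7:12999114-13031035, plus strand), the corepressor that links KRAB zinc-finger proteins to Setdb1, had up to 8 summits in a library, the most of the 10 genes, in Suv39h dn asynchronous library 2. Its annotation includes a long transcript that starts far upstream, and the peaks gathered around the second annotated start. The region called in most libraries, 9 of 12, lay at a median of 879 bp before that start, at chr7:13023160-13023570. The strongest promoter folds were 6.22 and 6.82 in asynchronous WT, 4.10 and 8.50 in asynchronous Suv39h dn, 6.01 in mitotic WT library 2, 5.73 in mitotic Suv39h dn library 2, 5.76 in chromosome WT library 2, and 5.19 and 3.51 in chromosome Suv39h dn. Suv39h dn libraries held both the highest and the lowest value, and the exact permutation p was 0.954. At the start itself, with a median distance of 3 bp, a summit was called in 3 asynchronous libraries and 1 mitotic library and in 0 of 4 chromosome libraries. A further region 9693 bp before the start was called with folds of 9.80 in asynchronous WT library 2, 5.08 and 8.43 in asynchronous Suv39h dn and 5.66 in mitotic Suv39h dn library 2. The starts of the neighbours Zbtb45 and Chmp2a, within the window, each had a region called in 5 cell libraries and 0 chromosome libraries, and a further region 446 bp from the start of Chmp2a was called in 2 chromosome libraries. Other intronic summits were called in 1 or 2 libraries each, and a summit in chromosome Suv39h dn library 1 lay 142 bp from the start of Slc27a5.

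Cbx1 (chr11:96789127-96808640, plus strand) encodes HP1β, and its promoter peak was called in 7 libraries. The folds were 6.01 in asynchronous WT library 2, 4.88 and 4.22 in asynchronous Suv39h dn, 5.83 in mitotic Suv39h dn library 2, 6.46 and 3.77 in chromosome WT and 4.73 in chromosome Suv39h dn library 2. The values of the genotypes overlapped, with an effect of 0 and an exact permutation p of 1.00. In cells every promoter summit lay within 54 bp of the 5′ end, whereas on chromosomes summits also lay 458 bp and between 1003 and 1176 bp downstream of it.

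Cbx3 (chr6:51470360-51483704, plus strand) encodes HP1γ and shares its promoter with Hnrnpa2b1, an RNA-binding protein gene transcribed in the other direction. Strongest promoter folds were 5.85 and 5.87 in asynchronous WT, 6.07 in asynchronous Suv39h dn library 2, 6.19 in mitotic WT library 2, 4.05 in mitotic Suv39h dn library 2, 6.33 and 5.55 in chromosome WT, and 6.04 and 5.82 in chromosome Suv39h dn. All 4 chromosome libraries had a promoter peak, with folds within a narrow range. The region between both genes, chr6:51469727-51470179, was called in 7 libraries from all preparations, at a median of 150 bp from the start of Hnrnpa2b1, and its peaks cannot be assigned to 1 gene. Summits 342 to 918 bp downstream of the 5′ end of Cbx3 were called on chromosomes, in each of the 4 libraries, and in none of the 8 cell libraries.

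Cbx5 (chr15:103191544-103239816, minus strand) encodes HP1α and had the most constant peak of the 10 genes. The region chr15:103239315-103239610, which covers the sequence shown above, was called in every library except Suv39h dn mitotic library 1. Its folds were 7.53 and 12.6 in asynchronous WT, and 11.6 and 13.4 in asynchronous Suv39h dn. Mitotic WT libraries had 6.37 and 7.35, and mitotic Suv39h dn library 2 had 7.50. Chromosome WT libraries had 3.37 and 6.86, and chromosome Suv39h dn libraries 7.0 and 7.09. The asynchronous values lay above all others for this region, though the lowest, 7.53 in WT library 1, barely exceeded the 7.50 of mitotic Suv39h dn library 2. The genotypes overlapped in asynchronous ESCs. On chromosomes both Suv39h dn values were above both WT values, by a small margin. Over all preparations the promoter of Cbx5 had an effect of 0.333 ranks and an exact permutation p of 0.824.

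The summits in this region lay 265 to 387 bp downstream of the start of Cbx5 in cells and on chromosomes alike. Upstream, 491 to 562 bp before the start and 106 bp (median) from the start of the neighbouring gene Hnrnpa1, another region was called in 3 asynchronous and 3 mitotic libraries with folds of 4.46 to 8.86. It was not called in any of the 4 chromosome libraries. A second start of Cbx5 within the gene had a region with folds of 7.10 in asynchronous WT library 2, 4.27 and 7.86 in asynchronous Suv39h dn and 6.48 in mitotic WT library 2, and again no chromosome library. Around the start, chr15:103239667-103240128 was called in 2 asynchronous, 1 mitotic and 3 chromosome libraries with folds of 4.81 to 9.30, and a region before the second start in 1 asynchronous and 1 chromosome library. At the depth of these lists, Cbx5 thus had 2 regions called in all preparations beside regions called in cells alone.

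Atrx (chrX:105797615-105929403, minus strand), the X-linked remodeller, had a promoter peak in all 4 asynchronous libraries and in none of the other 8. WT libraries had folds of 5.62 and 10.1, and Suv39h dn libraries 4.14 and 16.0, the last resting on 24 fragments and the highest fold at any of the 10 genes. The second library of each genotype was higher than the first, and the genotypes overlapped. No summit was called anywhere in the window of 141789 bp in mitotic or chromosome libraries. Intronic peaks at chrX:105864527-105864625 and chrX:105924757-105924921 were called in both asynchronous Suv39h dn libraries, with folds of 3.97 to 5.97 and 5 or 6 fragments, and in neither asynchronous WT library. At each library number the asynchronous Suv39h dn list was the longer, with 25074 and 80602 peaks against 22344 and 56897 in WT. These regions were picked after values were seen and were not tested, and no share of all regions that part in this way was taken. For the number of summits at Atrx, 1 and 2 for asynchronous WT, 3 and 5 for asynchronous Suv39h dn and 0 elsewhere, the exact permutation p was 0.333, the smallest that peaks in 1 preparation allow, although both Suv39h dn values were above both WT values.

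Over all genes, the comparison of preparations asked which promoters had a peak in all 4 libraries of one preparation and in 0 of 4 of another. No p is given for it, since 4 libraries against 4 permuted within genotype allow 36 arrangements and a smallest p of 0.0556. Between asynchronous and mitotic ESCs, 1 of the 10 genes, Atrx, was called in asynchronous ESCs, beside 2.79% of the 16329 genes with a promoter peak in at least 1 library. In the opposite direction 0 of the 10 were called, with a background of 0%. Between asynchronous ESCs and chromosomes, Atrx was again the 1 gene called in asynchronous ESCs, beside 3.13% of all genes, and 0 of 10 were called on chromosomes, beside 2.93%. Between chromosomes and mitotic ESCs, 0 of 10 were called on chromosomes, beside 10.4% of all genes, and 0 of 10 in mitotic ESCs, beside 0.165%. The comparisons share their libraries. With peaks at q at or under 1e-05 the call of Atrx was lost, since 2 of the 4 asynchronous libraries kept their peak. When the lists of a preparation were cut to the length of its shortest, Atrx was still called and Suv39h2 (chromosomes against asynchronous), Trim28 (asynchronous against mitotic) and Cbx3 (chromosomes against mitotic) were called as well. In that setting list lengths still differed between preparations, with 1746 peaks in each mitotic list.

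The summits around the 5′ ends of the genes lay further downstream on sorted chromosomes. Counting summits within 1 kb of the gene's most upstream start, 12 of 28 lay downstream of it in asynchronous ESCs, 5 of 13 in mitotic ESCs and 23 of 37 on chromosomes. The same was seen over all protein-coding genes, where 37.6%, 31.7% and 65.6% of summits lay downstream. The counts at the 10 genes are sums over libraries, and single libraries of different preparations overlapped. Suv39h dn asynchronous library 1 had 3 of 4 downstream and Suv39h dn chromosome library 1 had 3 of 7. More than 200 bp downstream lay 4, 3 and 16 of the summits at the 10 genes. In each cell library with such a summit it was the region of Cbx5. Over all genes the shares per library were 16.0% to 23.2% in asynchronous ESCs, 12.2% to 15.2% in mitotic ESCs and 45.7% to 46.5% on chromosomes. Library medians over all genes were between -72 and -34 bp in the 8 cell libraries and between 154 and 162 bp in the 4 chromosome libraries, without overlap. The summed shares downstream of the start had the same order of preparations at the 10 genes and over all genes. Setdb1, Ehmt1, Cbx1 and Cbx3 had downstream regions that were called on chromosomes alone. Of 32 merged promoter regions 15 were called on chromosomes alone and 3 in asynchronous ESCs alone, whereas of 33 other regions 9 and 17 were. Of the 65 regions 25 were called in 1 library. No such share was taken over all genes, so these counts are not read as particular to the 10 genes.

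**Figure D4:**
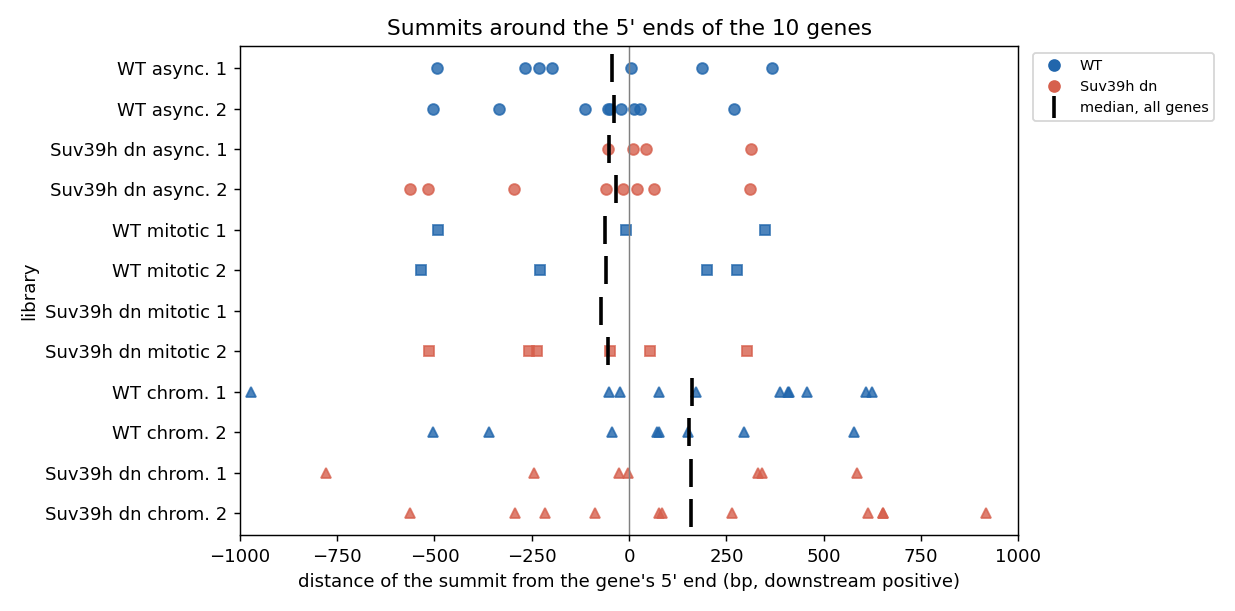
Distance of each summit from the 5′ end of its gene in bp (horizontal axis, downstream positive) for the 10 genes in each library (rows), with colour for genotype, shape for preparation and a black bar for the median over all protein-coding genes. The medians are negative in the 8 cell libraries and between 154 and 162 bp on chromosomes, where 16 summits of the 10 genes lie more than 200 bp downstream. Over all genes 45.7% to 46.5% of the summits of a chromosome library lie that far downstream.

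The median GC content of the 201-base windows lay between 52.7% and 61.2% in the 11 libraries with summits at the 10 genes, beside 51.7% to 57.2% over all summits of the 12 lists. The median number of CpG per window was 4.0 to 17.5 at the 10 genes and 3.0 to 8.0 over all summits. It was lowest at the 10 genes in Suv39h dn asynchronous library 2, the longest list.

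No difference between Suv39h dn and WT was called at the 10 genes, by a test with little power. The exact two-sided permutation test compared ranks within each preparation, with a smallest possible p of 0.00926 that not every gene could reach. Calls were sparse enough that 5 of the 10 genes could have had an unadjusted p under 0.05 for the promoter and 5 for the window. An adjusted p under 0.05 would have needed 3024 genes at the smallest p for the promoter, where 7 were found, and 3618 for the window, where 4 were found. For the promoter, 0 of 10 genes passed an adjusted p (Benjamini-Hochberg over 16329 genes), beside 0% of all genes, and 0 of 10 had an unadjusted p under 0.05, beside 0.276% (45 genes). For the number of summits in the window, 0 of 10 passed in both ways, beside 0% and 0.159% (31 of 19536 genes). Promoter ranks were lower in Suv39h dn for 6 genes, higher for 1 and equal for 3, with a median effect of -0.167 ranks beside 0 over all genes. Window ranks were higher for 7 and lower for 3, with a median of 0.167 beside 0. The medians of the promoter and of the window thus had opposite signs. All adjusted p of the 10 genes were 1.00, and the sum of genes with a promoter peak over the 6 libraries of a genotype was 33 in WT and 29 in Suv39h dn.

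Of the 31 other genes of the pathway, 0 passed the genotype test in either direction for the promoter or for the window. By preparation, Pphln1, a subunit of the HUSH silencing complex, was called in asynchronous against mitotic ESCs, with promoter peaks in 4, 0 and 3 libraries of asynchronous ESCs, mitotic ESCs and chromosomes. Kdm7a, a histone demethylase, had 0, 0 and 4 and was called on chromosomes against both cell preparations. Daxx, the partner of Atrx, had 3, 0 and 4, and Lbr, the lamin B receptor that binds HP1, had 2, 0 and 4, and both were called on chromosomes against mitotic ESCs. Read against the backgrounds above, 3 of 31 on chromosomes against mitotic ESCs is close to the 10.4% of all genes, as is 1 of 31 to 2.79% and to 2.93%. Kmt5c, which methylates histone H4 in heterochromatin, and Mphosph8, a HUSH subunit that binds methylated H3K9, had a promoter peak in all 12 libraries, as had 1.11% of all genes. The folds of Mphosph8 were 17.1 to 37.3, above any value at the 10 genes. Prdm2, a SET-domain protein, and Wiz, a partner of the Ehmt1 and Ehmt2 enzyme, had the fewest, with 3 libraries each.

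The genes whose promoter peak, ranked within its own list, most closely followed the number of the 10 genes with a promoter peak over the 12 libraries were Csrp2 (Spearman rho 0.97), Msl3l2 (0.94) and Ak5 (0.93, tied with Ddit4l and St3gal6). This describes 12 libraries that differ in list length, and the 3 genes were the highest of all genes compared.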

How the data were processed

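ATAC-seq libraries of WT and Suv39h dn ESCs were grouped by the genotype and preparation in the sample labels. The authors trimmed paired-end reads (Trim Galore 0.4.4), aligned them to mm10 (Bowtie2 2.2.9, SAMtools 1.2), merged technical runs, removed duplicate and mitochondrial reads, shifted read ends, kept fragments under 100 bp and called peaks per library with MACS2, without pooling. Each deposited peak list gives a fold enrichment (a ratio of pileup to background), the −log10 of p-values and q-values, and a score column. The threshold is not given in the sources used here, and the lowest −log10 q of a list was 1.3 to 1.32. The study's voom-limma test uses read counts per peak and was not run here.

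Summits were assigned to GENCODE vM21 genes with Python 3.11.15, numpy 2.4.6, scipy 1.17.1, pandas 2.3.3 and matplotlib 3.10.9. Genotypes were compared by an exact two-sided permutation test within preparations, on ranks of the strongest promoter fold (0 where none) or of the number of summits, with Benjamini-Hochberg adjustment over all protein-coding genes with at least 1 such peak. The effect is the mean rank difference, Suv39h dn minus WT. The test was tried on the values of these lists, shuffled within preparations. A genotype order was planted in genes with a promoter peak in all 12 libraries. None of the 10 genes had that, so recovery at genes with sparse calls was not tested. Fragments at a summit and the background were recovered from fold and p (100.0% of peaks with −log10 p under 60), which gives relative depth alone. Sequences were read from the RefSeq GRCm38 genome. The 10 genes, the gene lists and the tests were chosen with earlier results of these data known. Named were the 10 genes, pathway genes called in a comparison or with the most and fewest promoter peaks, the 3 genes most alike, and genes starting within 1 kb of a promoter peak. Regions, sequences and motifs described were picked after values were seen. Alternatives were q at or under 1e-05, equal list lengths within each preparation, other distances, a replicate block and leaving out each library.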

Additional observations from a re-analysis of the deposited data

How the results depend on the processing

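The genotype comparison gave 0 genes past an adjusted p of 0.05 under each alternative run, for the promoter and for the window, and at an unadjusted p under 0.05 between 12 and 95 genes for the promoter and between 1 and 110 for the window. None of the 10 genes had an unadjusted p under 0.05 in any of them, with a lowest exact permutation p of 0.0833. The signs of single effects, in ranks of Suv39h dn minus WT, were not stable. At q at or under 1e-05 the promoter effect of Cbx3 was 0.167 and the window effects of Suv39h2 and Ehmt1 were -0.667 and -0.167, against -0.167, 0.167 and 0.167. With equal list lengths the window effects of Setdb1, Ehmt2, Trim28 and Cbx1 were -0.333, -0.667, -0.167 and 0.167. With promoters of 2 kb Ehmt2 was at 0.667 and Trim28 at 0.167, and with the gene's 5′ end alone Trim28 was at 0.333. With no flank around the gene the window effects of Suv39h2, Trim28 and Cbx1 were -0.167, -0.167 and 0.333. Leaving out 1 library in turn gave promoter effects of -0.667 to 0.333 for Cbx3 and Trim28, -0.167 to 0.833 for Cbx5, -0.833 to 0.167 for Ehmt1 and -0.583 to 0.167 for Ehmt2. For the window the ranges were -0.500 to 0.0833 for Cbx1, -0.333 to 0.667 for Cbx3 and Trim28, -0.167 to 0.583 for Ehmt1 and Suv39h2, and -0.167 to 0.833 for Ehmt2.

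With the replicate block 0 genes passed the adjusted p, and 67 (promoter) and 13 (window) had an unadjusted p under 0.05, against 45 and 31. The correlation of the deviations of same-numbered libraries was 0.24, 0.19 and 0.03 in asynchronous ESCs, mitotic ESCs and chromosomes, so the numbers were not taken to pair the libraries.

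Counts between preparations moved with the threshold, the list length and single libraries. At q at or under 1e-05, 35 genes were called on chromosomes against asynchronous ESCs (479 in the main analysis), 978 in the opposite direction (511), 120 on chromosomes against mitotic ESCs (1706) and 16 in the opposite direction (27). Equal list lengths were set within each preparation, at 22344 peaks in asynchronous ESCs, 1746 in mitotic ESCs and 44885 on chromosomes. Lists of different preparations thus stayed unequal, and the counts between preparations are not adjusted for list length. In that setting 2034 genes were called in asynchronous against mitotic ESCs (455) and 1098 on chromosomes against asynchronous ESCs. On chromosomes against mitotic ESCs 3014 were called, and 10 in the opposite direction. Leaving out 1 library gave 455 to 1029 genes for asynchronous against mitotic ESCs, the highest without Suv39h dn asynchronous library 1. It gave 479 to 761 for chromosomes against asynchronous ESCs, the highest without Suv39h dn asynchronous library 2. For mitotic ESCs against chromosomes it gave 27 to 167, the highest without Suv39h dn mitotic library 1. Of the 10 genes, Atrx kept its calls when any library was left out. Suv39h2 was then called on chromosomes against asynchronous ESCs without asynchronous WT library 2 and against mitotic ESCs without mitotic WT library 1, and Ehmt1 on chromosomes against mitotic ESCs without chromosome WT library 2.

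The mean number of the 10 genes with a promoter peak, 6.25 in asynchronous ESCs, 2.75 in mitotic ESCs and 6.50 on chromosomes, became 3.75, 0.750 and 1.25 at q at or under 1e-05. With list lengths made equal within each preparation alone it became 4.25, 0.500 and 6.00. On chromosomes it was 5.25 with promoters of 500 bp and 5.00 with the 5′ end alone. The cause of these shifts was not tested beyond the shorter lists and distances that the alternatives impose. The lists hold called peaks of 3 fragments or more, so weaker openness was not detectable.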
